A study of Mus musculus with 18 samples.

Results

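The response of the liver transcriptome to a high-fat diet was described in 9 of the 18 mice of the study, the 5 LKO mice fed the high-fat diet (HFD) and the 4 LKO mice fed the control diet (CD), chosen by their titles. LKO mice carry floxed alleles of Ppp6r3, the gene of SAPS3, and an albumin-driven Cre recombinase, expressed in hepatocytes, so the other cells of the liver keep the gene. FF mice, the 9 other mice, carry the same floxed alleles without Cre, and all 18 were males on a C57BL/6 background. Both diets began at 8 weeks of age and lasted 16 weeks, with 32.5 kcal% fat in HFD and 10 kcal% in CD. Each mouse gave 1 table of RPKM values (mapped reads scaled for transcript length and library depth) from liver RNA, and the labels name a small RNA library kit beside standard RNA-seq without saying how they relate. SAPS3 is a regulatory subunit of protein phosphatase 6 (PP6), and the study asked how its loss from the liver alters the response to dietary fat through the energy sensor AMPK.

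A liver that receives excess fat is known to lower its own synthesis of fatty acids, to store triglyceride in lipid droplets and to raise fatty acid oxidation through the nuclear receptor PPAR alpha. Hepatocytes also fold and secrete most plasma proteins, so that the chaperones of the endoplasmic reticulum (ER) are abundant there and rise when unfolded proteins accumulate. Inflammatory cytokines acting through STAT3 raise the acute phase proteins, the metallothioneins that bind zinc, and hepcidin, the hormone that limits iron export.

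Ppp6r3 (chr19:3454928-3575749) was listed at 4.08, 3.88, 4.02 and 3.99 RPKM in LKO CD mice 1 to 4 and at 4.22, 4.42, 4.87, 4.71 and 4.77 RPKM in LKO HFD mice 1 to 5, against 9.34 ± 1.14 in FF CD and 8.23 ± 0.467 in FF HFD mice (mean ± SD, n = 4 and 5). No LKO mouse reached the lowest FF mouse, and the RNA that remained was 0.16 higher on the log2 scale in HFD (SE 0.0727; limma, adjusted p = 0.19), with no overlap of the diets (exact permutation test, two-sided, p = 0.0159, the smallest that 4 against 5 mice can give). Depths recovered from the steps between low RPKM values were 24.5 to 33.8 M reads in the LKO mice, and LKO HFD mouse 3 was the deepest. Summed RPKM ran from 344503 to 388647 and 9285 to 9965 genes were at 1 RPKM or more. No 2 mice of the study held the same values. Hepatocyte markers summed to 38769 to 49501 RPKM in CD and 37006 to 44139.7 RPKM in HFD (exact permutation test, two-sided, p = 0.127), and none of the 10 was at 0.

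In LKO livers, HFD raised Mt1 and Mt2 and 5 of 26 genes of a list of ER chaperones and related factors. Of 24 acute phase genes 4 rose, Stat3 among them. HFD lowered 5 of 22 genes of a list of fatty acid synthesis and related genes. G6pc, Hamp2, Inmt and Slc10a1, single genes of glucose release, iron control, methyl transfer and bile acid uptake, also fell. In a limma fit of the LKO mice alone none of these metallothionein, ER and acute phase genes was called (adjusted p 0.0571 to 0.126). Of the 5 from the fatty acid synthesis list only Elovl6 and Acly were called there (adjusted p = 0.0187 and 0.0349). G6pc and Hamp2 stayed called in that fit (0.0113 and 0.0339), but Inmt and Slc10a1 did not (0.0655 and 0.0684). Of the 11090 genes with a mean of at least 0.5 RPKM, 141 (1.27%) passed a fold change of 1.5 and an adjusted p of 0.05 (limma on log2(RPKM + 1), Benjamini-Hochberg), 107 of them higher in HFD (0.965%) and 34 lower (0.307%). The share called higher was 75.9%, and 75.8% with each mouse rescaled to the same sum. It was 45.5% when each mouse was centred on its median and 55.2% with quantile normalization. After removal of a trend with transcript length and GC content it was 52.3%. The median of all tested genes lay at 0.07 on the log2 scale, with 7296 of the 11090 above 0 and 3794 at or below 0. The part of this median in these shares was not tested. Adjusted p alone was passed by 449 genes (4.05%) and an unadjusted p under 0.05 by 2475 (22.3%). The diets did not overlap in 102 of the 141 called genes, against 9.04% of all genes tested. The calls were made from the same values, so this count is no separate evidence for them.

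The HFD mice did not respond evenly. On the first principal component of the 9 LKO livers, with 33% of the variance, the CD mice lay at -13.4 ± 2.76 and the HFD mice at 10.8 ± 11.4 (mean ± SD; exact permutation test, two-sided, p = 0.0159). HFD mice 1 and 2 sat at -3.68 and 1.66, and mice 3, 4 and 5 at 22.1, 20.2 and 13.5. Among the 107 genes called higher, the highest HFD mouse was mouse 3 in 53 and mouse 5 in 28, and the lowest was mouse 1 in 48. LKO CD mouse 3 stood apart at -23.7 on the second component, which held 22.1% of the variance and on which the diets did not separate (exact permutation test, two-sided, p = 0.397).

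The number of calls rested on single mice. Omitting 1 of the LKO CD mice left 30 (mouse 1), 123 (mouse 2), 17 (mouse 3) or 81 calls (mouse 4). Omitting 1 of the LKO HFD mice left 237 (mouse 1), 155 (mouse 2), 20 (mouse 3), 103 (mouse 4) or 114 calls (mouse 5). With an FF mouse left out the count ran from 105 to 140. The 13 genes called in each of the 9 fits that lacked 1 LKO mouse were Egr1, Plk2, Camkk2, Ifngr2, Jak3, Trim34a, Wdr81, Klhdc7a and Pcdh1, which were higher in HFD, and G6pc, Hamp2, Inmt and Acpp, which were lower.

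**Figure D1:**
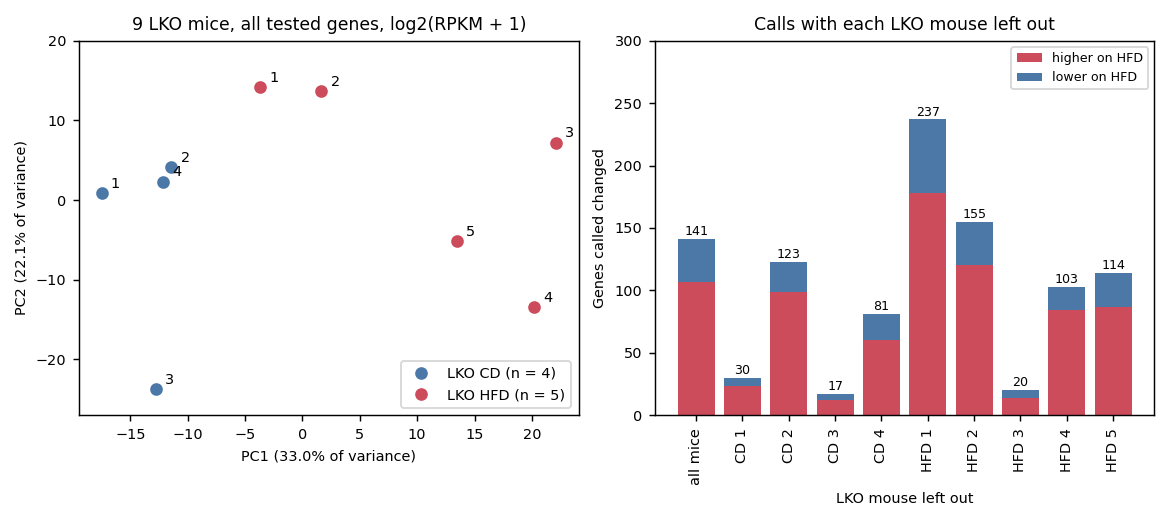
Left, positions of the 9 LKO mice on the first 2 principal components of log2(RPKM + 1), with the mouse number beside each point. Right, the number of genes called with each LKO mouse left out in turn, against 141 with all mice; the count is lowest, at 17 and 20, with mouse 3 of either diet left out.

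The metallothioneins Mt1 and Mt2, small cysteine-rich proteins that bind zinc and copper, had the largest rises of the genes whose diets did not overlap. They are neighbours on chromosome 8, at chr8:94172664-94173568 for Mt2 and chr8:94179082-94180327 for Mt1 (GRCm38, + strand). Their promoters are shown because metal-responsive transcription of these genes is a textbook case. Each line gives the 250 bases before the RefSeq start (GRCm38.p6, + strand), with matches to the metal response element core, TGCACNC or TGCGCNC on either strand, in capitals.
Mt1, chr8:94178839-94179088: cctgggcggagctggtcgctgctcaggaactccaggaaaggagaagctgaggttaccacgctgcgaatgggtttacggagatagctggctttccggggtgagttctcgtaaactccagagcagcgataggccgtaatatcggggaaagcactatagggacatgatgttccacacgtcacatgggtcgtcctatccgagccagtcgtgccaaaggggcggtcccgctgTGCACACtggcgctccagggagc
Mt2, chr8:94172368-94172617: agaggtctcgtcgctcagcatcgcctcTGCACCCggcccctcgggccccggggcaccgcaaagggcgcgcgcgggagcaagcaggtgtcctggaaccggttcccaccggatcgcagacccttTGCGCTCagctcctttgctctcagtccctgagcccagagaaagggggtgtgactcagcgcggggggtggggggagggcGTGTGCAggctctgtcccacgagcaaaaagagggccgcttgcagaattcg
Mt1 held 1 match and Mt2 held 3, while 10.4% of all 32851 RefSeq promoter windows held TGCACNC and 12.5% held TGCGCNC. Of the 8864 tested genes with a promoter entry, 12.6% held TGCACNC and 24.8% held TGCGCNC. The RefSeq starts differ from the gene starts given above. The Mt2 window ended at 94172617, before the gene start at 94172664, and the Mt1 window at 94179088, past the gene start at 94179082. Bases outside these windows were not searched, so matches nearer to the Mt2 gene start or beyond the windows are not counted.

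Mt2 was at 0.578, 3.64, 1.07 and 2.11 RPKM in LKO CD mice 1 to 4 and at 10.4, 10.7, 42.6, 9.73 and 167 RPKM in LKO HFD mice 1 to 5. All HFD mice were above all CD mice, and mouse 5 was far above the rest. The rise was 3.27 on the log2 scale (SE 0.633; limma, adjusted p = 0.017). Mt1 had 4.45, 20.4, 2.67 and 9.15 RPKM in CD and 29.4, 28.5, 119, 26.7 and 298 RPKM in HFD, with the same order of mice at the top, and rose by 2.93 (SE 0.615; adjusted p = 0.0208). The call of both genes was lost when CD mouse 1, CD mouse 3 or HFD mouse 3 was omitted, with adjusted p of 0.0661 to 0.0788 for Mt1 and 0.0606 to 0.067 for Mt2. In FF mice HFD raised Mt2 by 2.99 and Mt1 by 2.84, and the difference between genotypes was 0.29 for Mt2 (limma, adjusted p = 0.906). The zinc importer gene Slc39a14 also rose, from 28.3, 27.5, 25.9 and 25.6 RPKM to 28.6, 33.4, 59.6, 51.4 and 54.1 RPKM, by 0.68 (SE 0.185; adjusted p = 0.0449), a call that 13 of the 18 fits with 1 mouse left out did not make (adjusted p 0.0506 to 0.134). Of the 12 tested genes of metallothioneins and zinc transporters, these 3 were called, all higher (0.965% of all genes), and the list's median was 0.16.

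Chaperones and degradation factors of the ER formed the next group, with 5 of 26 tested members called higher (0.965% of all genes) and none lower. The called members were Derl3, which helps to pull misfolded proteins out of the ER, Sdf2l1, a cofactor of ER chaperones, Pdia4, a protein disulfide isomerase, Hsp90b1, the chaperone GRP94, and Xbp1, a transcription factor of the unfolded protein response. The list's median was 0.48, and 22 of the 26 lay above 0, against 7296 of all 11090 tested genes. An unadjusted p of 0.05 was passed by 16, against 22.3% of all genes. Derl3 and Hsp90b1 were the called genes whose promoter window held the ER stress response element, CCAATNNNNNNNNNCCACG on either strand, shown in capitals in the 250 bases before each RefSeq start (GRCm38.p6).
Derl3, chr10:75893148-75893397, + strand: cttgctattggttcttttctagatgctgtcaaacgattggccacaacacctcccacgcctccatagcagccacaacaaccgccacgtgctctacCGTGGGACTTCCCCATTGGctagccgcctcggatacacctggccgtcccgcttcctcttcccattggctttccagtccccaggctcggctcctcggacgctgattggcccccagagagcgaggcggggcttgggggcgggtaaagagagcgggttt
Hsp90b1, chr10:86705445-86705694, - strand: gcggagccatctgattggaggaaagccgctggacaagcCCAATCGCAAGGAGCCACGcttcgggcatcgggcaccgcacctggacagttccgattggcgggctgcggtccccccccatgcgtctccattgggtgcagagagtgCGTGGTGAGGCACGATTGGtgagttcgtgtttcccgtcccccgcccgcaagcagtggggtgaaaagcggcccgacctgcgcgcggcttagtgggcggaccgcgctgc
The element was present in 9 of the 22 list members with a promoter entry, and in 0.169% of the 8864 tested genes with one. Besides Derl3 and Hsp90b1 these were Calr, Canx, Creld2, Dnajc3, Hspa5, Pdia6 and Syvn1, none of which was called. The list was drawn up from known ER genes, and the share with the element was not tested.

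Derl3 (chr10:75893413-75895941) was at 0.986, 0.422, 1.21 and 1.09 RPKM in LKO CD mice 1 to 4 and at 1.71, 2.39, 15.8, 5.76 and 12.2 RPKM in LKO HFD mice 1 to 5. Mice 3 and 5 were highest, mouse 4 lay between, and mouse 1 was closest to the CD mice without reaching them. Its rise was 1.82 on the log2 scale (SE 0.408; limma, adjusted p = 0.0254). Sdf2l1, also highest in mice 3 and 5, had 12.1, 9.48, 9.27 and 8.92 RPKM in CD and 16.6, 18.7, 34.9, 16.2 and 35.8 RPKM in HFD and rose by 1.14 (SE 0.275; adjusted p = 0.0323). Pdia4 stood at 57.8, 58.6, 55 and 57 RPKM in CD and 67.6, 83.9, 170, 89 and 137 RPKM in HFD and rose by 0.85 (SE 0.221; adjusted p = 0.0408). The 4 CD mice were nearly equal for this gene, and the spread was among the HFD mice. Hsp90b1 rose by 0.74 (adjusted p = 0.0465) and Xbp1 by 0.70 (adjusted p = 0.0294). Hspa5, the chaperone BiP, had 199, 161, 185 and 166 RPKM in CD and 189.7, 237, 476, 228 and 355 RPKM in HFD, a difference of 0.66 that did not pass the test (adjusted p = 0.14). In CD mice the mean of the list, taken as log2 values relative to the CD mean, lay between -0.07 and 0.11, and in HFD mice 1 to 5 it was 0.12, 0.27, 0.94, 0.36 and 0.71. No member of the list was called when CD mouse 1, 2 or 3 or HFD mouse 3 was omitted, 1 was called when CD mouse 4 was, 2 when HFD mouse 4 or 5 was, and 10 when HFD mouse 1 was. Without the moderation of variances 0 of the 26 were called, and 3 were with the replicate number as a block. Its median stayed between 0.38 and 0.56 in these fits and under the other scalings.

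The acute phase list, 24 tested plasma proteins and regulators of the inflammatory response of the liver, had 4 members called higher (0.965% of all genes), none lower, and a median of 0.65, and 16 passed an unadjusted p of 0.05 (22.3% of all genes). Stat3, the transcription factor that carries the interleukin 6 signal, was at 14, 14.1, 11.7 and 13.6 RPKM in LKO CD mice 1 to 4 and at 15.8, 19.9, 41.2, 37.3 and 32.8 RPKM in LKO HFD mice 1 to 5. HFD mice 3, 4 and 5 stood well above the CD range and mouse 1 just above it. Stat3 rose by 1.0 on the log2 scale (SE 0.227; limma, adjusted p = 0.0266). Steap4, a metalloreductase induced by inflammatory cytokines, had 32.7, 36.4, 29.7 and 32.8 RPKM in CD and 36.2, 55.9, 110.5, 92.7 and 179.9 RPKM in HFD and rose by 1.3 (SE 0.294; adjusted p = 0.026), with HFD mouse 1 inside the CD range. Fgg, the fibrinogen gamma chain, stood at 1028, 1140.4, 981 and 1029 RPKM in CD and 1044, 1534, 2003, 1719.6 and 2094 RPKM in HFD and rose by 0.64 (adjusted p = 0.0405). Fga, the alpha chain, rose by 0.63 (adjusted p = 0.0398), and Fgb, the beta chain, differed by 0.53 with an adjusted p of 0.0471 and stayed under the fold limit.

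The best known acute phase gene, Saa1, spread over the HFD mice by more than an order of magnitude. It was at 19.1, 48, 16.8 and 37.1 RPKM in CD and 61.4, 1434, 154, 37.2 and 796 RPKM in HFD, so that mouse 4 lay inside the CD range and mouse 2 at the top, and the difference of 2.88 did not pass the test (SE 1.14; limma, adjusted p = 0.147). Saa1 and its neighbour Saa2 are near-identical and the division of reads between them is uncertain. Lcn2, an iron-scavenging acute phase protein, differed by 2.34 (adjusted p = 0.0708). Lrg1, a secreted leucine-rich glycoprotein known as a STAT3 target, was called outside the list, with 62.1, 81.3, 52.8 and 79.2 RPKM in CD and 82.1, 178, 216, 132 and 251 RPKM in HFD and a rise of 1.23 (SE 0.287; adjusted p = 0.0294). The STAT motif TTCNNNGAA was present in 6 of the 20 list members with a promoter entry (Apcs, Fga, Fgb, Itih4, Socs3 and Steap4), and in 7.07% of tested genes. With CD mouse 1, 3 or 4 or HFD mouse 3 omitted no list member was called, with CD mouse 2 or HFD mouse 4 or 5 omitted 2 were, and with HFD mouse 1 omitted 12 were. Without moderation the count was 0. Markers of Kupffer cells, the macrophages of the liver, were also higher in HFD as a sum. All 13 tested markers lay above 0 with a median of 0.54, against 7296 of all 11090 tested genes above 0. The sum over 17 ran from 91.1 to 133 RPKM in CD and 124 to 214 RPKM in HFD (exact permutation test, two-sided, p = 0.0476). In bulk liver more cells of a type and more RNA per cell cannot be told apart. Clec4f, a lectin specific to Kupffer cells, rose by 0.80 (adjusted p = 0.0291), except in the fits that omitted CD mouse 1 or 3 or HFD mouse 3 or 4 (adjusted p 0.0569 to 0.102). Mouse by mouse the lists did not run together, since the Kupffer list mean relative to CD was 0.24, 0.75, 0.55, 0.84 and 0.15 in HFD mice 1 to 5 (-0.16 to 0.27 in CD) and that of the acute phase list 0.19, 1.34, 0.91, 0.44 and 1.6 (-0.17 to 0.17 in CD). The part of these cells in the acute phase values was not tested.

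**Figure D2:**
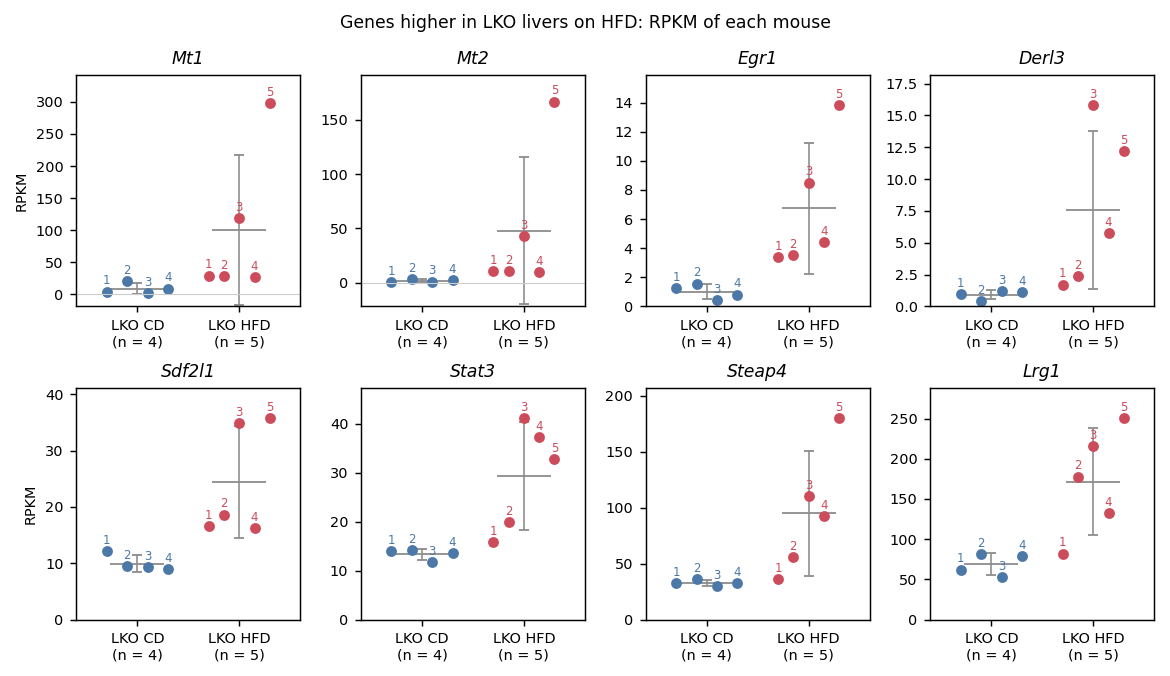
RPKM in each LKO mouse for 8 genes called higher in HFD: Mt1, Mt2, Egr1, Derl3, Sdf2l1, Stat3, Steap4 and Lrg1. Points are mice with their numbers, and grey bars give mean ± SD (n = 4 CD, n = 5 HFD). Mouse 3 or mouse 5 is the highest in every panel.

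Fatty acid synthesis was the group that fell. Of 22 tested genes listed under fatty acid synthesis, elongation and desaturation, 5 were called lower and none higher, against 0.307% of all genes called lower. In the list 18 lay at or below 0, against 3794 of all 11090 tested genes, with a median of -0.50. The calls include Thrsp, a regulator, Pnpla3, a lipid droplet protein, and Pklr, a pyruvate kinase, beside the enzymes Elovl6 and Acly. Elovl6 (chr3:129532355-129638495), which lengthens palmitate to stearate, was at 65.1, 58.6, 76.9 and 41 RPKM in LKO CD mice 1 to 4 and at 19.2, 16.3, 26.9, 18.7 and 22.6 RPKM in LKO HFD mice 1 to 5. The lowest CD mouse, mouse 4, was above the highest HFD mouse. Elovl6 fell by 1.48 on the log2 scale (SE 0.261; limma, adjusted p = 0.0113), and the call was lost only when CD mouse 3 was omitted (adjusted p = 0.0538). Acly, which makes cytosolic acetyl-CoA from citrate, had 145, 169, 148 and 85 RPKM in CD and 70.1, 51.6, 71.8, 46.5 and 55.2 RPKM in HFD and fell by 1.17 (SE 0.266; adjusted p = 0.0262). The diets were again apart. In FF livers 6 of the 22 genes of the list were called lower and 1 higher (1.49% and 5.11% of all genes), with a median of -0.25. Elovl6, Acly and Pnpla3 were called lower in both genotypes. The difference between the genotypes was called for 1 gene of the list, higher in LKO (0.947% of all genes).

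Thrsp, the lipogenic regulator Spot 14, fell from 808, 481, 782 and 406 RPKM in CD to 421, 197, 116, 49.1 and 200.2 RPKM in HFD, by 1.91 (SE 0.443; limma, adjusted p = 0.0285), with HFD mouse 1 at the level of CD mouse 4. Pnpla3, a lipid droplet protein under the control of SREBP-1c, had 7.54, 8.59, 6.22 and 2.3 RPKM in CD and 1.4, 1.07, 2.76, 0.382 and 0.756 RPKM in HFD and fell by 1.63 (adjusted p = 0.0398). Pklr, the liver pyruvate kinase, fell by 0.74 (adjusted p = 0.0285). Fasn, fatty acid synthase, was at 122, 93.8, 171 and 58.1 RPKM in CD and 55.3, 41.1, 90.6, 43.7 and 31.1 RPKM in HFD. The diets overlapped through CD mouse 4 and HFD mouse 3, and the difference of -1.06 did not pass the test (SE 0.333; adjusted p = 0.0754), nor did those of Srebf1 (-1.04, adjusted p = 0.0633) and Scd1 (-0.96, adjusted p = 0.0688). Fasn was called lower in FF livers (-1.09; limma, adjusted p = 0.0267), and the difference between the genotypes was 0.027 (adjusted p = 0.985). Acacb, the acetyl-CoA carboxylase that controls fatty acid entry into mitochondria, had 16.6, 25.2, 13.7 and 16.3 RPKM in CD and 21.7, 14.7, 29.9, 19 and 18.7 RPKM in HFD, with a difference of 0.20 (adjusted p = 0.61). The mean of the list relative to the CD mean was -0.30, -0.65, -0.35, -0.91 and -0.65 in HFD mice 1 to 5, against -0.23 to 0.16 in the CD mice. The list held no call when CD mouse 3 was omitted, 1 when CD mouse 1 or HFD mouse 3 was, 3 when CD mouse 2 or HFD mouse 4 was, and 7 when HFD mouse 1 was. Without moderation 1 was called, and 7 were with the block.

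Gpam and Lpin1, genes of enzymes of triglyceride synthesis, also fell. Gpam, the mitochondrial acyltransferase that begins triglyceride synthesis, was at 61.8, 88.4, 62.9 and 58.4 RPKM in CD and 48.5, 33.1, 36.2, 20.1 and 26.5 RPKM in HFD and fell by 1.06 (SE 0.25; limma, adjusted p = 0.0304). Lpin1, a phosphatidate phosphatase, had 45.2, 25.6, 44 and 26.5 RPKM in CD and 13.7, 16.2, 12.1, 11.3 and 16.8 RPKM in HFD and fell by 1.24 (SE 0.288; adjusted p = 0.0285). For both genes all HFD mice were below all CD mice. Other genes of the lipid droplet rose: G0s2, an inhibitor of triglyceride lipase, by 1.22 (adjusted p = 0.0405), Fabp4, a fatty acid carrier of adipocytes and macrophages, by 1.08 (adjusted p = 0.0407), Fitm2, which helps droplets to form, by 0.71 (adjusted p = 0.0277), and Lipe, hormone-sensitive lipase, by 0.65 (adjusted p = 0.0181). Of the 26 tested genes of the list, 4 were called higher and 2 lower (0.965% and 0.307% of all genes), with a median of 0.24. None of the list was called when CD mouse 1, CD mouse 3 or HFD mouse 3 was omitted and 1 was without moderation. The values of G0s2 were 35.9, 41.3, 22.2 and 83.1 RPKM in CD and 107, 65.5, 124, 64.3 and 149 RPKM in HFD, so that CD mouse 4 lay within the HFD range.

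**Figure D3:**
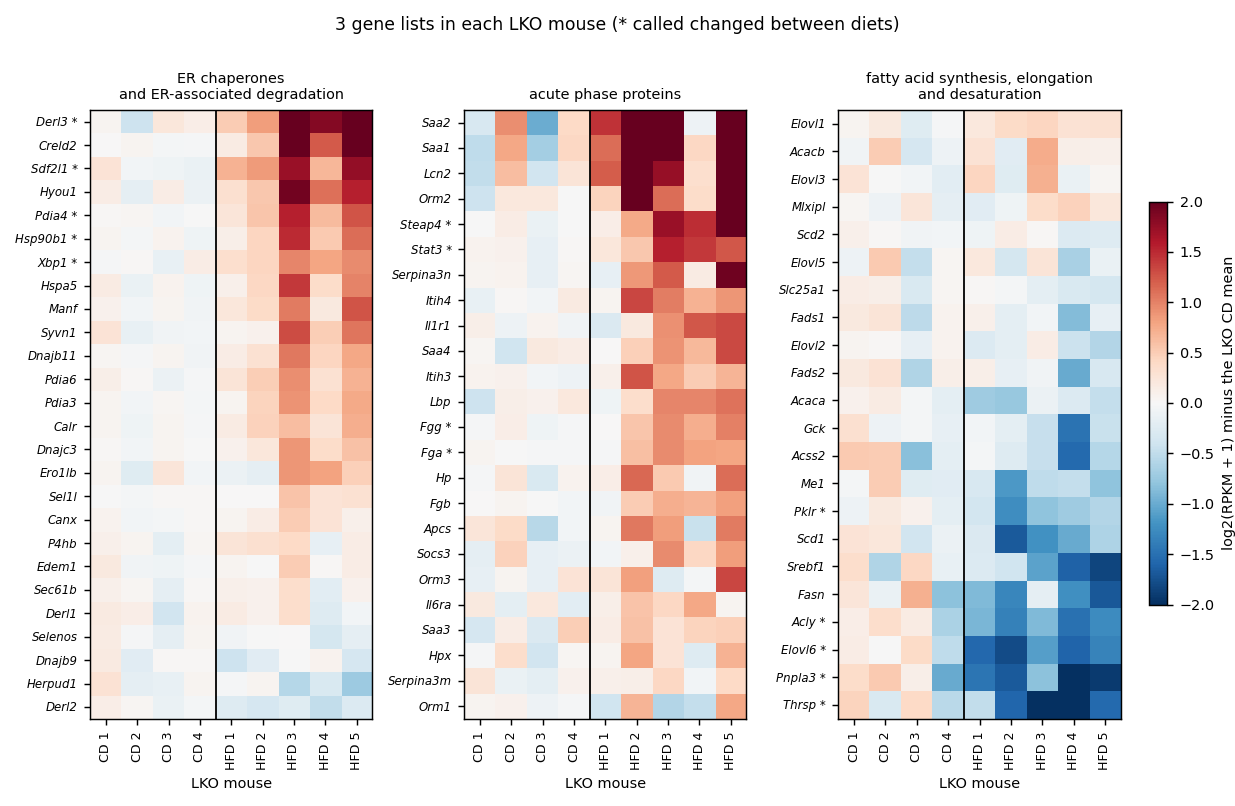
Each row is a tested gene of the ER chaperone, acute phase or fatty acid synthesis list and each column an LKO mouse. Colour gives log2(RPKM + 1) minus the mean of the 4 CD mice and saturates at ±2, and a star marks a called gene. Among the HFD mice the means of the ER and acute phase lists are lowest in mouse 1, at 0.12 and 0.19.

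G6pc (chr11:101367561-101377903), glucose-6-phosphatase, the last step of glucose release from the liver, had the smallest adjusted p of the genes described. It was at 170.5, 113, 132 and 136 RPKM in LKO CD mice 1 to 4 and at 63.2, 45.9, 48.9, 49.1 and 37.1 RPKM in LKO HFD mice 1 to 5, with a wide gap between the diets. The fall was 1.48 on the log2 scale (SE 0.162; limma, adjusted p = 0.000374), and it was called whichever mouse was left out. Pfkfb3, which makes the activator of glycolysis fructose-2,6-bisphosphate, had 3.5, 3.36, 5.03 and 2.73 RPKM in CD and 1.67, 1.34, 2.1, 1.52 and 1.78 RPKM in HFD and fell by 0.78 (SE 0.191; adjusted p = 0.0343). Pck1, the enzyme that commits oxaloacetate to glucose, differed by -0.45 and did not pass the test (adjusted p = 0.286). G6pc and Pfkfb3 were the only calls among the 19 tested genes of gluconeogenesis and insulin signalling (1.27% of all genes), whose median was -0.24.

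Hamp2, a second hepcidin gene of the mouse that is expressed at lower levels than Hamp, fell most among the genes whose diets did not overlap. It lies at chr7:30922372-30924681, beside Hamp, and the upstream sequences are shown because the pair is so alike there. Of 247 aligned bases in the 250 before each start, 227 (91.9%) were identical. Since they are paralogs, the division of reads between the genes is uncertain. Capitals mark the STAT motif TTCNNNGAA and the core of the BMP response element, GGCGCC, both searched on either strand (GRCm38.p6, - strand).
Hamp, chr7:30944030-30944279: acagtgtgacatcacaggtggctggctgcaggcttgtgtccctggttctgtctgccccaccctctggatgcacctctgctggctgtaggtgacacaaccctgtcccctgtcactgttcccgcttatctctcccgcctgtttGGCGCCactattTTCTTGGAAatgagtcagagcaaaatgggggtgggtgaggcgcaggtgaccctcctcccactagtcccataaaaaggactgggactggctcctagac
Hamp2, chr7:30924182-30924431: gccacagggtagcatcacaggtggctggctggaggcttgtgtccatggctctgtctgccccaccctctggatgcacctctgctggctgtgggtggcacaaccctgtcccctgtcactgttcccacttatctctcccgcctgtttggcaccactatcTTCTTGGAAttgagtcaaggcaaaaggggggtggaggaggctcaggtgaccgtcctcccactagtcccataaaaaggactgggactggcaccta
Both windows held the STAT motif, found in 7.02% of all promoter windows, and GGCGCC, found in 9.59%, was in that of Hamp. Of the tested genes with a promoter entry, 7.07% held the STAT motif and 19.3% held GGCGCC.

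Hamp2 was at 37.1, 13.6, 44.8 and 61.2 RPKM in LKO CD mice 1 to 4 and at 8.92, 7.38, 2.56, 3.38 and 2.66 RPKM in LKO HFD mice 1 to 5, and fell by 2.71 on the log2 scale (SE 0.467; limma, adjusted p = 0.0108). The call held with each of the 18 mice left out. Hamp, the gene of circulating hepcidin, had 1178, 904, 1495 and 1128 RPKM in CD and 910.4, 1022, 563, 348 and 957 RPKM in HFD and did not pass the test (-0.71, SE 0.347, adjusted p = 0.233). Only HFD mice 3 and 4 were below the CD range. Hmox1, heme oxygenase, which frees iron from heme, had 4.03, 5.79, 4.54 and 5.31 RPKM in CD and 11.2, 8.04, 9.18, 7.92 and 8.22 RPKM in HFD and rose by 0.74 (SE 0.196; adjusted p = 0.0411), a call lost in 10 of the 18 fits with a mouse left out (adjusted p 0.0513 to 0.131). Hamp2 and Hmox1 were the 2 calls among 19 tested iron genes (1.27% of all genes), whose median was 0.05 and -0.06 to 0.05 under other scalings.

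Inmt and Slc10a1 were the single calls of their lists, against 1.27% of all genes called. Inmt, a methyltransferase for indoleamines and other amines, was at 467, 348, 389.9 and 477 RPKM in CD and 265, 245, 80.4, 99.1 and 78.5 RPKM in HFD, where mice 3, 4 and 5 formed the lower cluster. It fell by 1.65 (SE 0.296; limma, adjusted p = 0.012) and belongs to 19 tested genes of methyl and one-carbon metabolism, with a median of -0.08. Slc10a1, the bile acid importer NTCP, had 369.9, 336, 428 and 405 RPKM in CD and 307, 291, 221, 202 and 205 RPKM in HFD, in the same order of mice as Inmt apart from small shifts among mice 3 to 5. Its fall was 0.67 (SE 0.144; adjusted p = 0.0229), and the call was lost with CD mouse 1, 3 or 4 or HFD mouse 3 omitted (adjusted p 0.0549 to 0.0806). The 22 tested genes of bile acid synthesis and transport, to which it belongs, had a median that was -0.09.

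**Figure D4:**
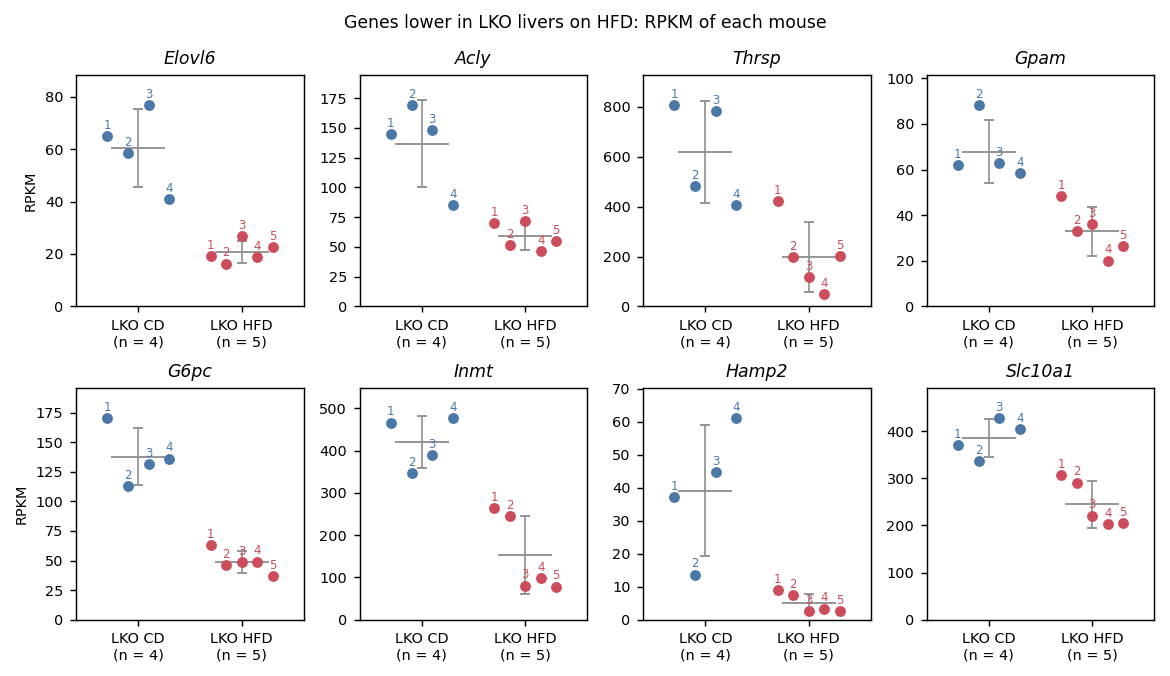
RPKM in each LKO mouse for 8 genes called lower in HFD: Elovl6, Acly, Thrsp, Gpam, G6pc, Inmt, Hamp2 and Slc10a1. Points are mice with their numbers, and grey bars give mean ± SD (n = 4 CD, n = 5 HFD). All HFD mice lie below all CD mice in each panel but that of Thrsp, where HFD mouse 1 is at 421 RPKM and CD mouse 4 at 406 RPKM.

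Several regulators were among the calls least tied to 1 mouse. Egr1, an immediate early transcription factor, was at 1.23, 1.57, 0.447 and 0.813 RPKM in LKO CD mice 1 to 4 and at 3.37, 3.51, 8.5, 4.41 and 13.8 RPKM in LKO HFD mice 1 to 5, and rose by 1.8 on the log2 scale (SE 0.286; limma, adjusted p = 0.00833). Plk2, a polo-like kinase and target of p53, had 2.09, 2.13, 2.09 and 2.77 RPKM in CD and 5.05, 3.96, 5.36, 5.81 and 3.81 RPKM in HFD and rose by 0.82 (SE 0.112; adjusted p = 0.00335). The HFD mice were close together for Plk2. Gadd45b (0.62, adjusted p = 0.0378) was the other call among 14 p53 targets (1.27% of all genes). Camkk2, a calcium-dependent kinase upstream of AMPK, stood at 1.03, 1.3, 0.941 and 1.26 RPKM in CD and 1.89, 2.34, 3.81, 2.92 and 2.58 RPKM in HFD and rose by 0.78 (SE 0.125; adjusted p = 0.00833). It was the 1 call among 14 subunits and regulators of AMPK and PP6, against 1.27% of all genes called.

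Srebf2, the transcription factor of cholesterol synthesis, had 5.94, 6.42, 4.08 and 4.93 RPKM in CD and 8.49, 9.43, 13, 8.79 and 7.4 RPKM in HFD and rose by 0.71 (SE 0.145; limma, adjusted p = 0.0197). It was the single call among 25 genes of cholesterol synthesis and uptake (1.27% of all genes), with a median of 0.22. The call was lost with mouse 3 of either diet omitted (adjusted p 0.0606 to 0.074). Nupr1, a stress-induced nuclear protein, rose by 0.68 (adjusted p = 0.0373) as the 1 call among 16 genes of the integrated stress response (1.27% of all genes). Hspb1, a small heat shock protein of the cytosol, had 5.34, 7.94, 5.79 and 9.03 RPKM in CD and 11.5, 10.2, 45.7, 31.1 and 24.9 RPKM in HFD and rose by 1.5 (SE 0.317; adjusted p = 0.0215). The remaining large rises were in Fbf1 (1.29, adjusted p = 0.0488), Tbx3, a T-box repressor (1.19, adjusted p = 0.017), and B3galt1, a galactosyltransferase (1.14, adjusted p = 0.0406). The remaining large falls were in Chrna4, a subunit of the nicotinic acetylcholine receptor (-1.33, adjusted p = 0.0343), Hcn3, an ion channel (-1.25, adjusted p = 0.0154), and Noct, the deadenylase-like protein nocturnin (-1.01, adjusted p = 0.0241). Of these 7, Hcn3 was lost only when CD mouse 3 was omitted (adjusted p = 0.0613), Tbx3 when mouse 3 of either diet was (0.0593 to 0.0624), Hspb1 and Noct when either of these or CD mouse 1 was (0.0606 to 0.0788 and 0.0706 to 0.0889), and Fbf1, B3galt1 and Chrna4 in 11, 7 and 6 of the 18 fits.

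Fatty acid oxidation, a group raised by HFD in FF livers, gave no call in LKO livers. None of the 35 tested PPAR alpha targets and oxidation genes was called in LKO mice by limma, 8 (22.9%) passed an unadjusted p of 0.05, and the median was 0.17. With robust fitting or without moderation the count stayed at 0, and it was 1 with the replicate number as a block and when CD mouse 2 or CD mouse 4 was omitted, as with each mouse rescaled to the same sum. In FF livers 26 were called higher, against 5.11% of all genes, with a median of 0.85, and the difference between the genotypes was called for 15, all lower in LKO (1.5% of all genes). The steepest were the microsomal omega-hydroxylases Cyp4a14 and Cyp4a10. Cyp4a14 was at 51.9, 146, 95.1 and 213 RPKM in LKO CD mice and 84.3, 146, 257, 342 and 55 RPKM in LKO HFD mice, against 5.18 ± 4.66 in FF CD and 266 ± 88.4 in FF HFD mice. The LKO values of both diets overlapped, and the FF CD mice were below all of them. HFD differed from CD by 0.36 in LKO (adjusted p = 0.725) and 5.62 in FF, a difference of -5.26 (limma, adjusted p = 0.000475). Cyp4a10 differed by -3.71 (adjusted p = 0.000417), with -0.11 in LKO and 3.6 in FF. Angptl4, an inhibitor of lipoprotein lipase and the largest change of the list in LKO, had 25.6, 22.3, 12.9 and 33.2 RPKM in CD and 38.1, 33.3, 42.1, 38.2 and 39.6 RPKM in HFD (0.75, adjusted p = 0.0598).

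Genes with sex-biased expression in liver, which follow the rhythm of growth hormone, also responded otherwise than in FF livers. Of 26 tested male-predominant genes, 1 was called in LKO, higher (0.965% of all genes), with a median of 0.50. In FF 22 were called lower (1.49% of all genes), with a median of -2.06. The difference was called for 17, higher in LKO (0.947% of all genes). The LKO call was Selenbp2, a selenium-binding protein close in sequence to Selenbp1, at 39.2, 22.2, 24.1 and 8.63 RPKM in CD and 65.9, 65, 90.2, 38.3 and 208 RPKM in HFD. CD mouse 1 was just above the lowest HFD mouse, mouse 4. It rose by 1.88 (SE 0.405; limma, adjusted p = 0.0221) against -4.33 in FF, a difference of 6.21 (adjusted p = 1.38e-05), and the LKO call was lost with CD mouse 3 or 4 or HFD mouse 3 omitted (adjusted p 0.0593 to 0.0699). Serpina1e, an alpha-1-antitrypsin of a multicopy family, was at 1125, 607, 940.3 and 312 RPKM in CD and 1301, 1656, 1573, 1867 and 1789 RPKM in HFD without passing the test in LKO (1.28, adjusted p = 0.119), and its difference from FF was 7.19 (adjusted p = 1.38e-05). Hsd3b5, a steroid dehydrogenase of male liver, differed by -0.0058 in LKO (adjusted p = 0.995) and -5.86 in FF (difference 5.86, adjusted p = 1.76e-05). The major urinary protein genes Mup7 and Mup15 differed by 6.4 (adjusted p = 0.0337) and 4.92 (adjusted p = 0.0049), with values that are uncertain because the family's copies are near-identical. The genotypes already stood apart on CD. LKO CD and FF CD means ± SD were 23.5 ± 12.5 and 149 ± 46.1 RPKM for Selenbp2 and 746 ± 360 and 3777 ± 1055 RPKM for Serpina1e. The means were 63.1 and 133 RPKM for Hsd3b5, 977 and 6583 RPKM for Mup7, and 26.7 and 391 RPKM for Mup15. In LKO HFD mice Selenbp2 (93.5 RPKM) and Serpina1e (1637 RPKM) had means below those of FF CD mice. The genotype difference on CD was not tested here.

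Of 13 female-predominant genes, Hamp2 was the 1 call in LKO, lower (0.307% of all genes), while 9 were called higher in FF (5.11% of all genes). The difference was called for 7, all lower in LKO (1.5% of all genes). Hamp2 itself fell in LKO mice and stood at 14.8 ± 5.0 RPKM in FF CD and 34.3 ± 22.1 RPKM in FF HFD mice, a difference of -3.69 between the responses (limma, adjusted p = 0.00427). The cytochromes Cyp2b9 and Cyp2a4 differed by -0.093 and -0.051 in LKO and by 5.9 and 4.52 in FF, differences of -5.99 (adjusted p = 2.74e-05) and -4.58 (adjusted p = 0.000709). Both belong to families with near-identical copies. Across the 34 tested xenobiotic enzymes and receptors, none was called in LKO by limma and 2 passed an unadjusted p of 0.05 (22.3% of all genes). The largest LKO difference of this list was -0.85 for Cyp2a5 (adjusted p = 0.124), while 16 of the list were called in FF (6.6% of all genes).

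For some ER and acute phase genes the response to HFD was higher in LKO than in FF livers. In FF livers none of the 26 ER genes was called higher and 3 were called lower (1.49% of all genes), with a median of -0.26. For 4 of them a larger response in LKO was called (0.947% of all genes). Xbp1 was at 59.8, 61.9, 55.2 and 68.2 RPKM in LKO CD and 77.7, 82.5, 122, 106 and 119 RPKM in LKO HFD mice, against 75.1 ± 7.52 in FF CD and 47.8 ± 13.2 in FF HFD mice, so that HFD raised it in LKO and lowered it in FF. The difference was 1.37 (limma, adjusted p = 0.00275). For Sdf2l1 it was 1.57 (adjusted p = 0.0361), and for Derl3 1.63 without passing the test (adjusted p = 0.148). Of the 24 acute phase genes, 2 were called higher in FF livers (5.11% of all genes) and none lower, with a median of 0.15. The difference was called for 4 acute phase genes, all higher in LKO (0.947% of all genes), with 1.06 for Fgg (adjusted p = 0.0193) and 1.07 for Fga (adjusted p = 0.0134). Lrg1 differed by 1.63 (adjusted p = 0.0364), B3galt1 by 1.58 (adjusted p = 0.0481) and Camkk2 by 0.66 (adjusted p = 0.0498). G6pc fell in both genotypes and more in LKO (difference -0.99, adjusted p = 0.0256), a call lost when CD mouse 4 was omitted (adjusted p = 0.0550). Of the 18 differences named, those of Camkk2, Lrg1, B3galt1, Sdf2l1 and Mup7 were lost in 16, 14, 12, 11 and 8 of the 18 fits with a mouse left out, among them for each gene the fit that omitted HFD mouse 3, with adjusted p of 0.0517 to 0.114. The other 12 besides G6pc were called in every such fit.

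Over all genes, the LKO and FF diet contrasts share no mouse. HFD called 732 genes in FF livers (6.6%), and 44 genes were called in the same direction in both genotypes, which is 31.2% of the LKO calls and 6.01% of the FF calls. The 6 genes called in opposite directions were Selenbp2, Scara5, Xbp1, 3110082I17Rik, Plk3 and Ppp1r3g. The genes called higher in LKO had a median of 0.75 in LKO and 0.36 in FF, with 87 of 107 above 0 in FF, and those called lower had -0.98 and -0.51, with 29 of 34 below 0 in FF. The sign was shared by 82.3% of the called genes and by 64.8% of all genes tested. The difference of the responses was called for 271 of the 11090 genes (2.44%), and 22 of these were among the 141, 17 higher in LKO and 5 lower.

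**Figure D5:**
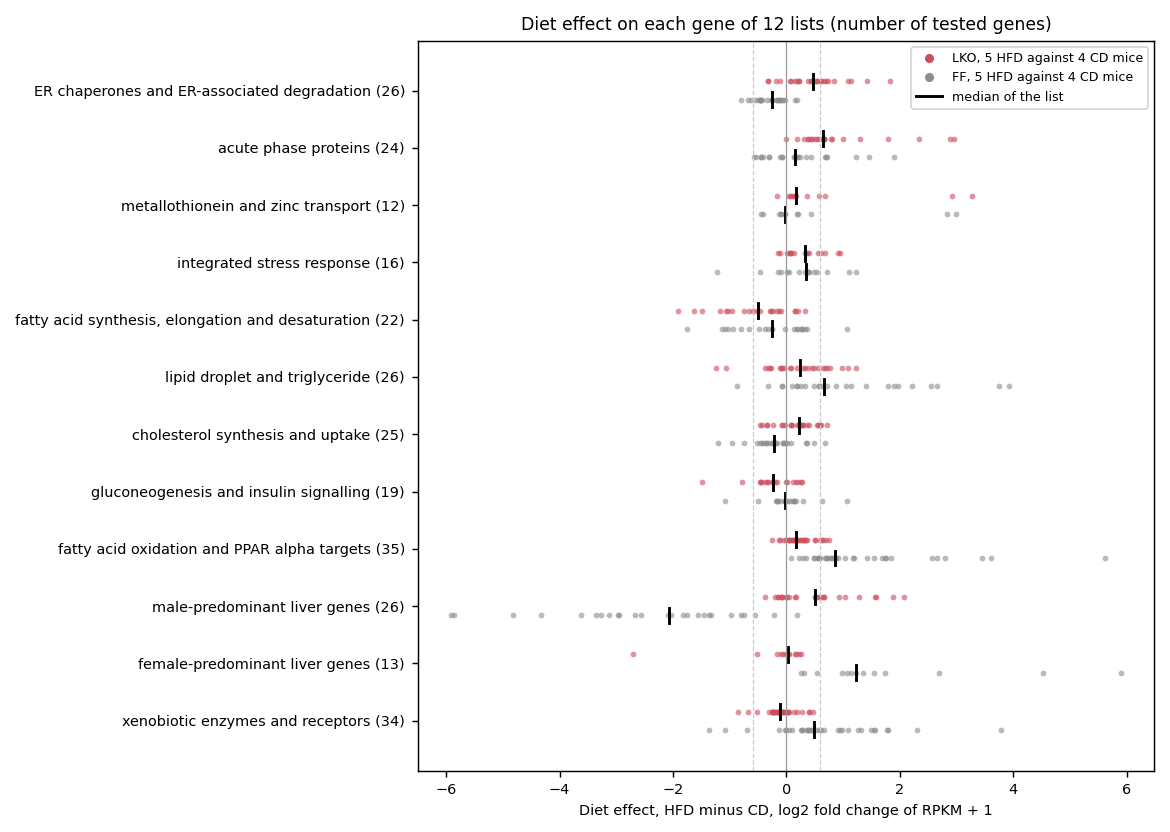
Log2 fold changes between HFD and CD for the tested genes of 12 lists, in LKO (red, upper row of each pair) and FF livers (grey, lower row), with black bars at the medians and dashed lines at a fold change of 1.5. The median for fatty acid oxidation is 0.17 in LKO and 0.85 in FF, and that for male-predominant genes 0.50 and -2.06.

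The remaining lists held few calls in LKO livers. Of 81 cytosolic ribosomal proteins none was called by limma, 9 (11.1%) passed an unadjusted p of 0.05, against 22.3% of all genes. In this list 76 lay at or below 0, against 3794 of all 11090 tested genes, with a median of -0.16. Of 95 subunits of the mitochondrial respiratory chain none was called and 34 (35.8%) passed an unadjusted p of 0.05. Of these subunits 89 lay at or below 0, and the median was -0.19. Without the trend of fold change with transcript length and GC content, Rpl34 was called (adjusted p = 0.0482), at -0.57 and an adjusted p of 0.0802 with the trend in place. The median fold change of all genes ran from -0.0045 among the shortest 2733 transcripts to 0.098 among the longest 2727, and the part of length in the values of these families was not tested. The largest difference of the respiratory chain was -0.61 for Cox7a1 (adjusted p = 0.10). None of 26 sphingolipid enzymes, 18 clock genes and 8 cell division genes was called, with 8, 5 and 3 at an unadjusted p under 0.05. These are 30.8%, 27.8% and 37.5% of short lists, against 22.3% of all genes. Their largest differences were 0.44 for Ormdl2, a regulator of sphingolipid synthesis (adjusted p = 0.0609), -0.65 for the period gene Per1 (adjusted p = 0.161), and 0.74 for cyclin D1, Ccnd1 (adjusted p = 0.163). The counts of these lists were 0 or 1 in each of the 9 fits without an LKO mouse.

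Among other cell types, 17 of 17 tested markers of sinusoidal endothelium lay above 0, against 7296 of all 11090 tested genes. Their median was 0.47 and none was called. Their sum ran from 37.8 to 92.5 RPKM in CD and 84.9 to 117 RPKM in HFD (exact permutation test, two-sided, p = 0.0952). Stellate cell and matrix markers, which include collagens, summed to 89.7 to 146 RPKM in CD and 80.8 to 157 RPKM in HFD (exact permutation test, p = 0.683). The sums of cholangiocyte (p = 0.556), lymphocyte (p = 0.222), adipocyte (p = 0.159) and acinar markers (p = 0.667) overlapped between the diets in the same exact test, and Lep, Prss1 and Ctrb1 were at 0 in all LKO mice.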

How the data were processed

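Liver RNA of 18 mice was sequenced, and the authors deposited 1 table of RPKM values per mouse, which were used as deposited. The submitters' processing notes name HISAT2 2.0.4, Partek and mm10. How reads were assigned to genes, with which annotation and strand setting, is not given in the sources used here. Groups came from the labels. Values were tested as log2(RPKM + 1) with limma 3.58.1 under R 4.3.3, by lmFit, contrasts.fit and eBayes with a mean trend, two-sided, in 1 fit of 4 groups over genes averaging 0.5 RPKM or more in the 18 mice, and p-values were adjusted by Benjamini-Hochberg over the 11090 tested genes. A gene was called at a fold change above 1.5 and an adjusted p under 0.05. Fold changes are on the log2(RPKM + 1) scale, which understates the change of low genes. Single values were compared by exact permutation tests in scipy 1.17.1. The labels do not state that mice were separate litters or cages, so p-values measure the spread between these mice.

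Depth per mouse, 23.4 to 37.0 M reads over all 18, was recovered from the spacing of RPKM values of single-exon genes. Gene positions are from GENCODE M21 (GRCm38), and promoter windows from a RefSeq table (GRCm38.p6) of 32851 entries. Transcript length and GC content were available for 10925 tested genes (98.5%). Alternatives changed the pseudocount to 0.1, the filter to 1 RPKM or none, the scaling, the moderation, the samples and the block. The step was tested on simulated data before use. Named genes were Ppp6r3, Fasn and Acacb, the 10 largest rises and falls among called genes with no overlap of mice and at least 1 RPKM, up to 3 called genes per list (or its largest change), and the 5 largest differences from FF in each direction. Xbp1, Hsp90b1, Hspa5, Fga, Fgb, Saa1, Lcn2, Clec4f, Pklr, Srebf1, Scd1, Fitm2, Lipe, Pck1, Hamp, genes named by a count and those under other observations were picked after their values were seen. The members and lists were chosen with earlier results of these data known.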

Additional observations from a re-analysis of the deposited data

Results flagged for a closer look

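Among 110 groups of values (55 genes in 2 diets), 6 had a mouse far from the others by Dixon's criterion, near the 1 in 20 that chance gives. Mt2 was at 166.6 RPKM in LKO HFD mouse 5, with 42.6 RPKM next. Gpam was at 88.4 RPKM in LKO CD mouse 2 and Plk2 at 2.77 RPKM in LKO CD mouse 4, with 62.9 and 2.13 RPKM next. Cyp2b9 was at 3.42 RPKM in LKO CD mouse 4 and at 1.48 RPKM in LKO HFD mouse 2, with 0.196 and 0.450 RPKM next, and Cyp2a4 was at 2.92 RPKM in LKO HFD mouse 2, with 0.693 RPKM next.

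The diet response differed between LKO and FF livers, tested as the interaction in limma with adjusted p-values, for 16 of the named genes. The response was higher in LKO by 7.19 for Serpina1e (adjusted p = 1.38e-05), 6.4 for Mup7 (0.0337), 6.21 for Selenbp2 (1.38e-05), 5.86 for Hsd3b5 (1.76e-05), 4.92 for Mup15 (0.0049), 1.63 for Lrg1 (0.0364), 1.58 for B3galt1 (0.0481), 1.57 for Sdf2l1 (0.0361), 1.06 for Fgg (0.0193) and 0.66 for Camkk2 (0.0498) on the log2 scale. It was lower in LKO, with differences of -5.99 for Cyp2b9 (adjusted p = 2.74e-05), -5.26 for Cyp4a14 (0.000475), -4.58 for Cyp2a4 (0.000709), -3.71 for Cyp4a10 (0.000417), -3.69 for Hamp2 (0.00427) and -0.99 for G6pc (0.0256).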

How the results depend on the processing

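The number of genes called in LKO livers, 141, was 272 with a pseudocount of 0.1, 47 with no filter on low values, 87 with quantile normalization, 88 with each mouse centred on its median, 40 in a fit of the LKO mice only, 53 without moderation, 86 with the length and GC trend removed (chosen after seeing the data), 449 by adjusted p alone, and 17 to 237 with 1 mouse left out. The 47 calls without a filter and the 53 without moderation were all among the 141, and 138 of the 141 were among the 272. The difference between the responses, 271 genes, was 169 with no filter, 411 with each mouse rescaled to the same sum, 167 without moderation and 155 to 393 with 1 mouse left out, lowest without FF CD mouse 3. The count in FF livers, 732, was 1254 with a pseudocount of 0.1 and 2287 by adjusted p alone. The replicate numbers did not pair the mice: deviations of equally numbered LKO CD and HFD mice correlated at 0.129, -0.028, -0.105 and -0.020 and 0 of 4 CD mice matched their own number best. A fit with the replicate number as a block called 166 genes, 119 of them among the 141. Without a call in LKO, 5 cytochrome and steroid genes turned direction. Hsd3b5 (-0.0058) was 0.011 rescaled to the same sum, 0.010 with quantile normalization, and -0.31 to 0.23 with 1 mouse left out, above 0 for LKO CD 1 and 3 and LKO HFD 2 and 5. Cyp2b9 (-0.093) was 0.43 with a pseudocount of 0.1, 0.059 with the block and -0.30 to 0.42 with 1 mouse left out, above 0 for LKO CD 4. Cyp2a4 (-0.051) was 0.052 with the block and -0.34 to 0.14 with 1 left out, above 0 for LKO CD 4 and LKO HFD 1 and 5. Cyp4a14 (0.36) ran from -0.0056 (LKO CD 1 left out) to 0.70, and Cyp4a10 (-0.11) from -0.33 to 0.11 (LKO CD 2 left out). The cause was not tested. Of 1595 fold changes of named genes recomputed, 268 passed the threshold no longer and 5 newly did, in the same direction. Leaving out a mouse also leaves fewer samples, and 4 against 5 mice limit what a test can call.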

Other observations

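Some called genes outside the lists were picked by their values, and no count or test was made over them. Ifngr2, a chain of the interferon gamma receptor, rose by 0.82 in LKO (limma, adjusted p = 0.010) and Jak3, a cytokine receptor kinase, by 0.76 (adjusted p = 0.00147), and both were called with each mouse left out. Ifngr2 was at 6.31, 9.04, 5.96 and 8.62 RPKM in LKO CD mice and 13.1, 11.5, 16.7, 16.7 and 11.8 RPKM in LKO HFD mice, with no overlap. The Toll-like receptor adaptor Myd88 rose by 0.63 (adjusted p = 0.0208), the peptide transporter Tap1 by 0.65 (adjusted p = 0.0197), Il1rn, the interleukin 1 receptor antagonist, by 0.82 (adjusted p = 0.0197) and the chemokine Ccl6 by 1.02 (adjusted p = 0.0208). Each of these 4 was lost in 3 of the 18 fits with a mouse left out, those that omitted CD mouse 1, CD mouse 3 or HFD mouse 3, at adjusted p of 0.0606 to 0.0788. The semaphorin and VEGF receptor Nrp1 rose by 0.86 (adjusted p = 0.0218) and the plexin Plxnb2 by 0.71 (adjusted p = 0.0208), both also lost in these 3 fits (adjusted p 0.0662 to 0.0788 and 0.0624 to 0.0682).

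Ppp1r3g, a glycogen-targeting subunit of protein phosphatase 1, had 2.8, 2.83, 0.932 and 3.14 RPKM in LKO CD and 1.19, 0.436, 0.18, 0.239 and 0.319 RPKM in LKO HFD mice and fell by 1.2 (limma, adjusted p = 0.0197), while it rose by 0.72 in FF livers. The LKO call was lost in 2 of the 18 fits, those that omitted CD mouse 1 or HFD mouse 3 (adjusted p 0.0606 to 0.0682). The glucose transporter gene Slc2a4 fell by 0.67 (adjusted p = 0.0192), lost in the same 3 fits as Myd88 (adjusted p 0.0606 to 0.0727). Plk3, a stress-responsive polo-like kinase, fell by 1.08 in LKO (adjusted p = 0.0443) and rose by 1.16 in FF livers, and its LKO call was lost in 9 fits (adjusted p 0.0509 to 0.141).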
